A study of Mus musculus with 10 samples.

Results

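Fatty acid binding proteins were followed across 10 mouse expression arrays. They were represented by the 12 probe sets, of 22690 on the array, whose single gene symbol was Fabp1, Fabp2, Fabp3, Fabp4, Fabp5, Fabp6 or Fabp7 (7 of 12393 such symbols). The members were chosen by their levels on the sorted arrays, where Fabp3 and Fabp4 lay far apart, in opposite directions, between the Sox2-positive and Sox2-negative fractions of reprogramming cells. The difference between the fractions is therefore given for every member as a description without a test. Of the 12 probe sets, 7 were above 4 on the log2 scale of the deposited values on 2 or more arrays and entered the fit. The 7 fitted probe sets belonged to 4 genes, Fabp3, Fabp4, Fabp5 and Fabp7.

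Fatty acid binding proteins are small cytosolic carriers that hold long-chain fatty acids, or bile acids in the case of Fabp6, inside a barrel-shaped pocket. They carry their ligands to membranes, to mitochondria and to nuclear receptors of the PPAR family. Each is best known from the tissue that makes most of it. Fabp1 is the liver form, Fabp2 the intestinal, Fabp3 that of heart and muscle, and Fabp4 that of adipocytes and macrophages. Fabp5 is the epidermal form, Fabp6 the ileal, and Fabp7 that of brain and radial glia. In the RefSeq annotation (GRCm38.p6) Fabp4 and Fabp5 lie near each other on chromosome 3, with the family members Pmp2 and Fabp9 between them. Fabp2 is also on chromosome 3, Fabp1 on chromosome 6, Fabp3 on chromosome 4, Fabp6 on chromosome 11 and Fabp7 on chromosome 10.

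Each of the 5 groups had 2 arrays, replicates a and b. Induced pluripotent stem cells (iPSC) had been kept in 2i, a pair of kinase inhibitors, with serum (2i iPSC), or alongside embryonic fibroblasts of the mouse (MEF iPSC). The labels do not state that fibroblasts were taken out of the latter. The other 3 groups came from secondary mouse embryonic fibroblasts (MEFs), cells prepared to express the Yamanaka reprogramming factors Pou5f1, Sox2, Klf4 and Myc, after 32 days of factor expression. They were cells sorted as Sox2-positive, cells sorted as Sox2-negative, and a day 32 sample with no fraction named, in a series on sorting cells by their RNA. The labels name neither the mouse strain nor the number of lines, and do not say if replicates were separate cultures. The p-values thus measure the spread between arrays, which may be technical. An exact two-sided permutation test of 2 arrays against 2 cannot go below p = 0.333, so tests rest on limma's model over all probe sets.

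The arrays fell into 2 classes. The 18S ribosomal RNA control (3' probe set) read 11.35 to 13.22 on the 6 arrays of MEF iPSC and both fractions, and 5.25 to 6.55 on the 4 arrays of 2i iPSC and the day 32 sample. The median of all values was 4.27 to 4.33 in the first class and 5.28 to 5.36 in the second. The Actb control, as its 3' minus its 5' probe set, read 2.70 to 3.88 in the second class. In the first it read 1.08 and 1.12 in MEF iPSC and 0.05 to 0.21 in the fractions, so it also moved with the comparisons of the fractions with MEF iPSC. RNA was amplified with 1 of 2 kits, and the kit of a given sample is not stated in the labels. The part of these differences in the results was not tested. Class and group cannot be told apart when the day 32 sample is set beside a fraction, or 1 iPSC culture beside the other. The Sox2 probe set read 9.46 and 10.45 in the Sox2-positive fraction and 4.45 and 4.13 in the Sox2-negative one, in the order of the labels. Of 12 pluripotency markers, 12 exceeded 4 on both arrays of every group other than the Sox2-negative fraction, where 3 did, and 11 were called higher in Sox2-positive cells. Pou5f1, which is outside that list, did not follow. It read 10.92 and 10.38 in the Sox2-positive fraction and 10.06 and 11.11 in the Sox2-negative one. In bulk RNA, fewer cells with a transcript and less transcript in each cell cannot be told apart.

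The RefSeq promoter table held 5 of the 7 members, and the 250 bases before the annotated start are shown for the 2 that also passed the filter, Fabp3 and Fabp7, since these differed in opposite directions between the fractions. The Fabp3 stretch is chr4:130308488-130308737 and the Fabp7 stretch chr10:57784673-57784922, both on the plus strand of GRCm38.p6. Capitals mark matches, on either strand, to a motif set chosen after the sequences were seen. The set held the E-box as CANNTG, the TATA box as TATAAA, the GC box as GGGCGG, the octamer as ATGCAAAT, the nuclear receptor core as AGGTCA, the core of the cAMP response element as TGACGT and the Klf-type element as CACCC.
Fabp3: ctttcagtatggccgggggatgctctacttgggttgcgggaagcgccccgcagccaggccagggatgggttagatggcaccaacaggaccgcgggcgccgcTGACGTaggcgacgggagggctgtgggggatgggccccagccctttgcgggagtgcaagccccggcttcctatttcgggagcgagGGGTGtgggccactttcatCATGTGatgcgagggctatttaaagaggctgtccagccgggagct
Fabp7: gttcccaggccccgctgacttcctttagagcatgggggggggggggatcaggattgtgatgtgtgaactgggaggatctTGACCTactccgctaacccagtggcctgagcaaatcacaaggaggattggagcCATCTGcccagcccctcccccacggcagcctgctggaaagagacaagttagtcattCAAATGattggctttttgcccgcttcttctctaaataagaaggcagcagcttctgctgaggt
The Fabp3 stretch held TGACGT once, 149 bases before the start, a motif in 6.47% of 32851 mouse promoter stretches of the same length. It also held CACCC at 64 bases (52% of promoters) and CANNTG at 45 bases (66.2%). The Fabp7 stretch held AGGTCA 171 bases before the start (14% of promoters) and CANNTG at 118 and at 62 bases. Neither held TATAAA (12.4%), GGGCGG (32.7%) or ATGCAAAT (1.6%). No 2 matches overlapped in these 2 stretches. A match describes letters and does not mark a bound site.

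Fabp3, the heart and muscle carrier, was bright in every group other than the Sox2-negative fraction. Its only probe set, 1416023_at, read 11.01 and 11.10 in the Sox2-positive fraction and 3.50 and 4.90 in the Sox2-negative fraction. It read 12.10 and 11.56 in 2i iPSC, 8.95 and 9.59 in MEF iPSC, and 10.74 and 11.92 in the day 32 sample. The Sox2-negative arrays were the lowest of the 10 and overlapped no other group. The means of the fractions, 11.06 ± 0.06 (SD, n = 2) and 4.20 ± 0.99 (SD, n = 2), differed by 6.86 log2 units (SE 0.52), a 116-fold higher level in the Sox2-positive fraction. That fold rests partly on background, since 1 of the 2 Sox2-negative arrays was under 4. With any 1 of the 4 sorted arrays left out the difference stayed between 6.16 and 7.56, with a 71.3-fold level without Sox2-negative replicate a and at least 133-fold without replicate b.

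From the highest group mean to the lowest, Fabp3 ran from 2i iPSC (11.83 ± 0.38, SD, n = 2) through the day 32 sample (11.33 ± 0.83) and the Sox2-positive fraction to MEF iPSC (9.27 ± 0.45) and the Sox2-negative fraction. The top 3 groups overlapped their neighbours in this order and the last 2 did not. The Sox2-positive fraction lay 1.79 log2 units (3.45-fold) above MEF iPSC and the Sox2-negative fraction 5.07 (33.6-fold) below them, both given without a test since the sorted arrays chose the gene. The latter was 20.7-fold without Sox2-negative replicate a and at least 38.6-fold without replicate b. Day 32 and 2i iPSC, in the same array class, overlapped and did not differ past the threshold (difference -0.50, SE 0.52, limma adjusted p = 0.614). Without day 32 replicate a that difference was 0.09, and without replicate b -1.09. Fabp3 was higher in 2i iPSC than in MEF iPSC by 2.56 log2 units (SE 0.52, 5.90-fold, limma adjusted p = 0.0024). The median of all probe sets was higher by 0.92 in that comparison, where class and culture cannot be told apart. With each array centred on its median, the Fabp3 difference was 1.44 (limma adjusted p = 0.0434). RefSeq lists 1 pseudogene of Fabp3 and 1 of Fabp5 in the mouse, and cross-hybridisation to them was not tested.

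**Figure D1:**
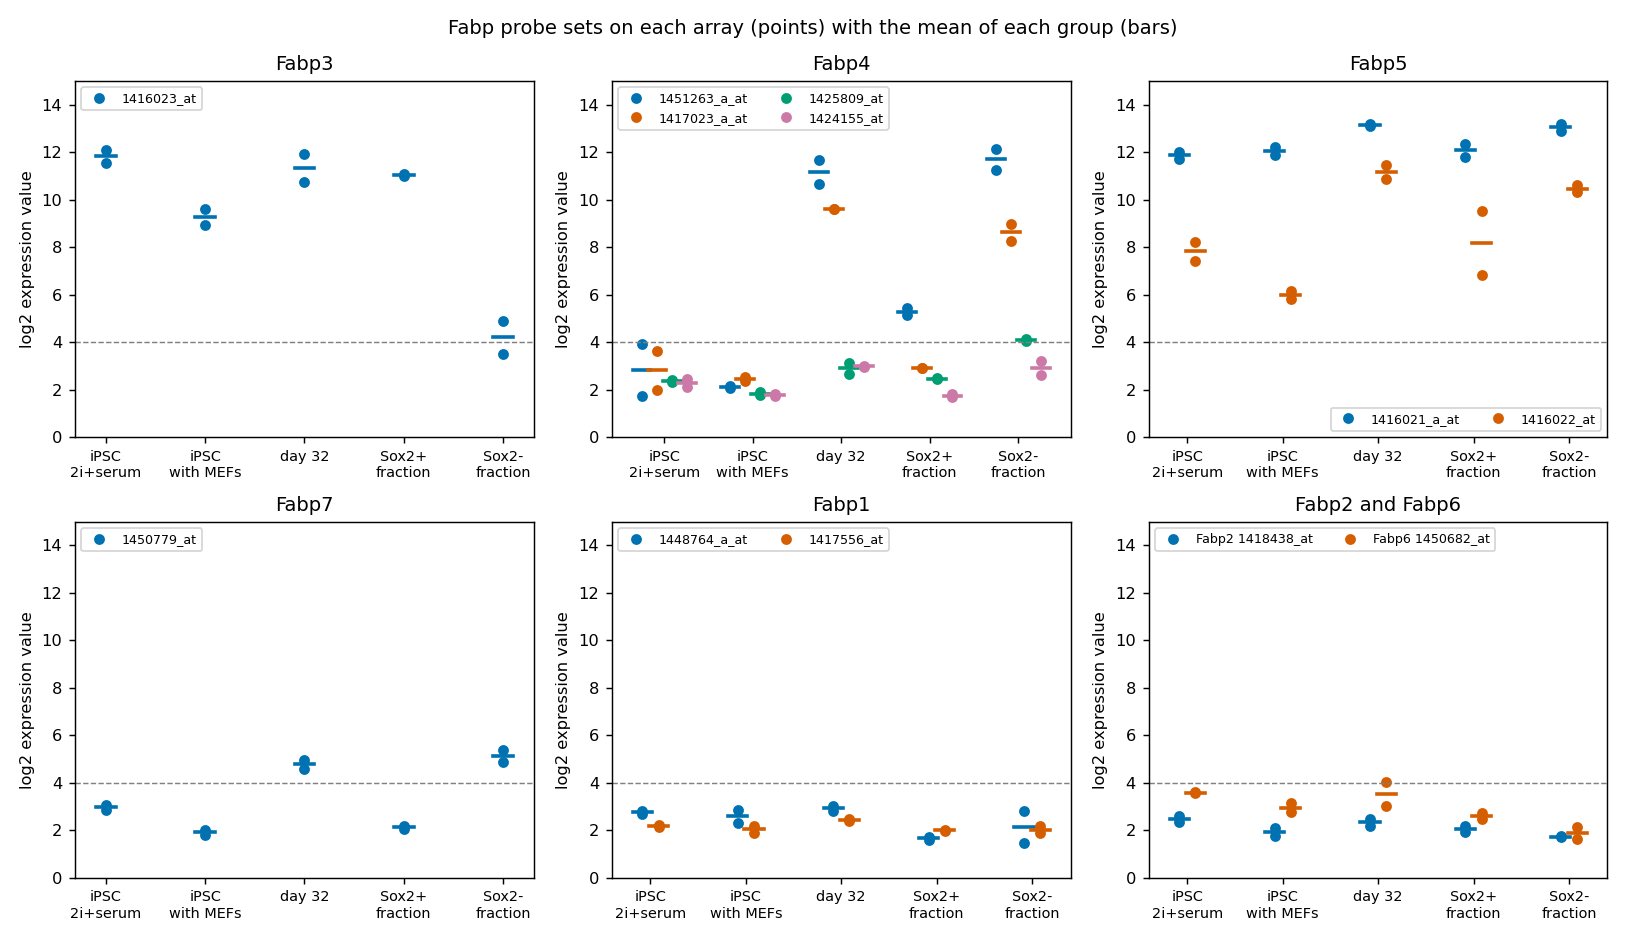
Log2 level on each array for the 12 Fabp probe sets, in panels by gene, with points for single arrays, bars for the mean of 2 arrays and a dashed line at the filter value of 4. Fabp3 lies at 3.50 and 4.90 in the Sox2-negative fraction and above 8.9 on the other 8 arrays, whereas Fabp4 (1451263_a_at) lies above 10.6 on the day 32 and Sox2-negative arrays and under 5.5 on the other 6.

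Fabp4, the adipocyte and macrophage carrier, was high in the Sox2-negative fraction and the day 32 sample. Probe set 1451263_a_at read 12.15 and 11.25 in the Sox2-negative fraction and 5.43 and 5.14 in the Sox2-positive fraction. It read 11.68 and 10.68 in the day 32 sample, 1.71 and 3.92 in 2i iPSC, and 2.16 and 2.05 in MEF iPSC. The Sox2-negative and day 32 arrays were the 4 highest, and overlapped. The means of the Sox2-positive (5.29 ± 0.21, SD, n = 2) and Sox2-negative fraction (11.70 ± 0.64) differed by -6.42 log2 units (SE 0.64), an 85.3-fold lower level in the Sox2-positive fraction.

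A second Fabp4 probe set, 1417023_a_at, read 8.97 and 8.28 in Sox2-negative and 2.91 and 2.89 in Sox2-positive cells, at least 24.7-fold apart. The words "at least" mark a fold taken against the filter value of 4, because both arrays of the lower group were under it. It read 9.61 on both day 32 arrays, 2.00 and 3.63 in 2i iPSC, and 2.38 and 2.53 in MEF iPSC. Both probe sets placed the Sox2-negative fraction and the day 32 sample above the other groups with no overlap. They parted on the Sox2-positive fraction, which 1451263_a_at placed above both iPSC groups without overlap and 1417023_a_at placed among the dim groups.

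The other 2 Fabp4 probe sets were dim. Probe set 1425809_at passed the filter only through the Sox2-negative arrays, at 4.12 and 4.06, and lay between 1.76 and 3.12 elsewhere. Probe set 1424155_at reached 3.19 at most and was not fitted. Its highest arrays were again from the Sox2-negative fraction and the day 32 sample, at 2.60 to 3.19 against 1.67 to 2.44 on the other 6.

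In the comparison free of sorted arrays, Fabp4 rose in the day 32 sample over 2i iPSC. The difference was 8.37 log2 units (SE 0.64, at least 145-fold, limma adjusted p = 0.00116) for 1451263_a_at and 6.80 (SE 0.47, at least 48.8-fold, adjusted p = 0.00116) for 1417023_a_at. Neither probe set exceeded 4 in an iPSC group, so both passed the filter only through groups where they were higher. Their calls thus describe the probe sets and are no support for a direction. Both stayed called under each alternative tried, with an adjusted p of at most 0.032. Against MEF iPSC, 1451263_a_at was at least 208-fold higher in Sox2-negative and at least 2.44-fold higher in Sox2-positive cells, as untested values. None of the 3 fitted Fabp4 probe sets passed the threshold between the iPSC groups, where the levels were all under 4. The differences were 0.36 (limma adjusted p = 0.524), 0.54 (0.0869) and 0.71 (0.359). Without 2i iPSC replicate a, 1417023_a_at and 1451263_a_at became called there (adjusted p = 0.0291 and 0.0199), as did 1425809_at with no filter (0.0469) and with array weights (0.0399).

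**Figure D2:**
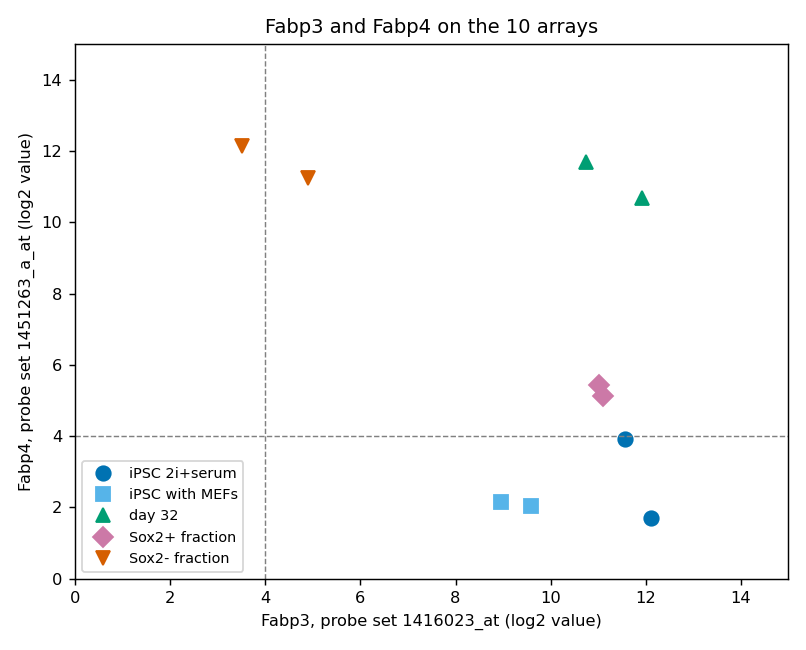
Fabp3 (1416023_at, x axis) against Fabp4 (1451263_a_at, y axis) in log2 units, 1 point per array, coloured by group. The Sox2-negative arrays sit at low Fabp3 and high Fabp4, the Sox2-positive and iPSC arrays at high Fabp3 and low Fabp4, and the day 32 arrays are high on both axes.

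Fabp5, the epidermal carrier that delivers ligands to Ppard, was bright on all arrays. Probe set 1416021_a_at read 13.20 and 12.90 in the Sox2-negative fraction and 12.33 and 11.82 in the Sox2-positive fraction. It read 12.03 and 11.70 in 2i iPSC, 11.90 and 12.22 in MEF iPSC, and 13.12 and 13.21 in the day 32 sample. The day 32 and Sox2-negative arrays overlapped each other and lay above the 6 others, which overlapped among themselves. The level in the Sox2-positive fraction was 1.97-fold under that in the Sox2-negative fraction (difference -0.98 log2 units, SE 0.28).

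Probe set 1416022_at of Fabp5 had a wider spread. It read 10.60 and 10.33 in the Sox2-negative fraction, 9.52 and 6.84 in the Sox2-positive fraction, and 11.48 and 10.86 in the day 32 sample. It read 8.23 and 7.42 in 2i iPSC and 5.81 and 6.16 in MEF iPSC. The Sox2-positive replicates were 2.68 log2 units apart, the widest gap within a group of any member. The difference between the fractions was -2.29 (SE 0.71), but -3.63 without Sox2-positive replicate a and -0.95 without replicate b.

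The Fabp5 calls of either fraction against MEF iPSC used sorted arrays, on which the family was chosen, and are no support for a direction. Against MEF iPSC, both Fabp5 probe sets rose in the Sox2-negative fraction. For 1416022_at the difference was 4.48 log2 units (SE 0.71, 22.3-fold, limma adjusted p = 0.00136), and for 1416021_a_at it was 0.99 (SE 0.28, 1.99-fold, adjusted p = 0.0188). The second call was lost without MEF iPSC replicate a (adjusted p = 0.116) or Sox2-negative replicate a (0.0771). In the Sox2-positive fraction, 1416021_a_at overlapped MEF iPSC (difference 0.02, adjusted p = 0.973). Probe set 1416022_at was 2.19 units higher (SE 0.71, 4.58-fold, adjusted p = 0.0412), a call lost without MEF iPSC replicate a (0.179) or b (0.118). Without Sox2-positive replicate a that difference was 0.85 (1.81-fold, 0.188), and without replicate b the level was 11.6-fold higher.

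In the day 32 sample, Fabp5 was higher than in 2i iPSC by 1.30 log2 units (SE 0.28, 2.46-fold, limma adjusted p = 0.0303) for 1416021_a_at. For 1416022_at the difference was 3.35 (SE 0.71, 10.2-fold, adjusted p = 0.0284). The 4 compared arrays did not overlap between the groups for either probe set. Leaving out any of them ended both calls, with adjusted p-values of 0.0869 (iPSC replicate a), 0.205 (iPSC replicate b), 0.185 (day 32 replicate a) and 0.0912 (day 32 replicate b) for 1416021_a_at, and of 0.0795, 0.18, 0.224 and 0.055 in the same order for 1416022_at. Between the iPSC groups 1416021_a_at did not pass (difference -0.20, adjusted p = 0.565), though with median-centred arrays it was lower in 2i iPSC (difference -1.31, adjusted p = 0.00451). Probe set 1416022_at was 1.84 higher there (3.58-fold, adjusted p = 0.0468), and 0.73 higher with centred arrays (adjusted p = 0.432). Its call was also lost without 2i iPSC replicate a (0.21) or b (0.0653), or MEF iPSC replicate a (0.175) or b (0.112).

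Fabp7, the carrier of radial glia and other neural progenitors, exceeded 4 in the same 2 groups in which Fabp4 was high. It read 5.37 and 4.89 in the Sox2-negative fraction and 4.97 and 4.60 in the day 32 sample. The Sox2-positive fraction read 2.05 and 2.19, 2i iPSC 2.86 and 3.06, and MEF iPSC 1.82 and 2.00. The first 2 groups overlapped each other, and the other 6 arrays were all under 4. The Sox2-negative fraction stood at least 2.19-fold above the Sox2-positive fraction (means 5.13 ± 0.34 and 2.12 ± 0.10, SD, n = 2 each).

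Fabp7 rose in the Sox2-negative fraction over MEF iPSC by 3.22 log2 units (SE 0.27, at least 2.19-fold, limma adjusted p = 0.000143). It rose in the day 32 sample over 2i iPSC by 1.82 (SE 0.27, at least 1.72-fold, adjusted p = 0.00776). Fabp7 passed the filter only through the Sox2-negative and day 32 arrays, so both calls describe the probe set and are no support for a direction. The first call also used sorted arrays, on which the family was chosen. The second call was lost without iPSC replicate a (adjusted p = 0.0561) or day 32 replicate a (0.0844). Between the Sox2-positive fraction and MEF iPSC both groups were under 4 (difference 0.21, adjusted p = 0.581). Both iPSC groups were likewise under 4, with a difference of 1.05 (adjusted p = 0.00817) that was -0.07 after median centring, and whose call was lost without 2i iPSC replicate b (0.0541) or MEF iPSC replicate a (0.0527).

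The remaining members stayed near background. The 2 probe sets of Fabp1, the liver carrier, lay between 1.46 and 3.01 on all 10 arrays. Fabp2, the intestinal carrier, lay between 1.72 and 2.58. Fabp6, which binds bile acids in the ileum, reached 4.04 on day 32 replicate b and otherwise lay between 1.64 and 3.62. These 4 probe sets and Fabp4 1424155_at did not pass the filter, so no fold or test is given for them.

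**Figure D3:**
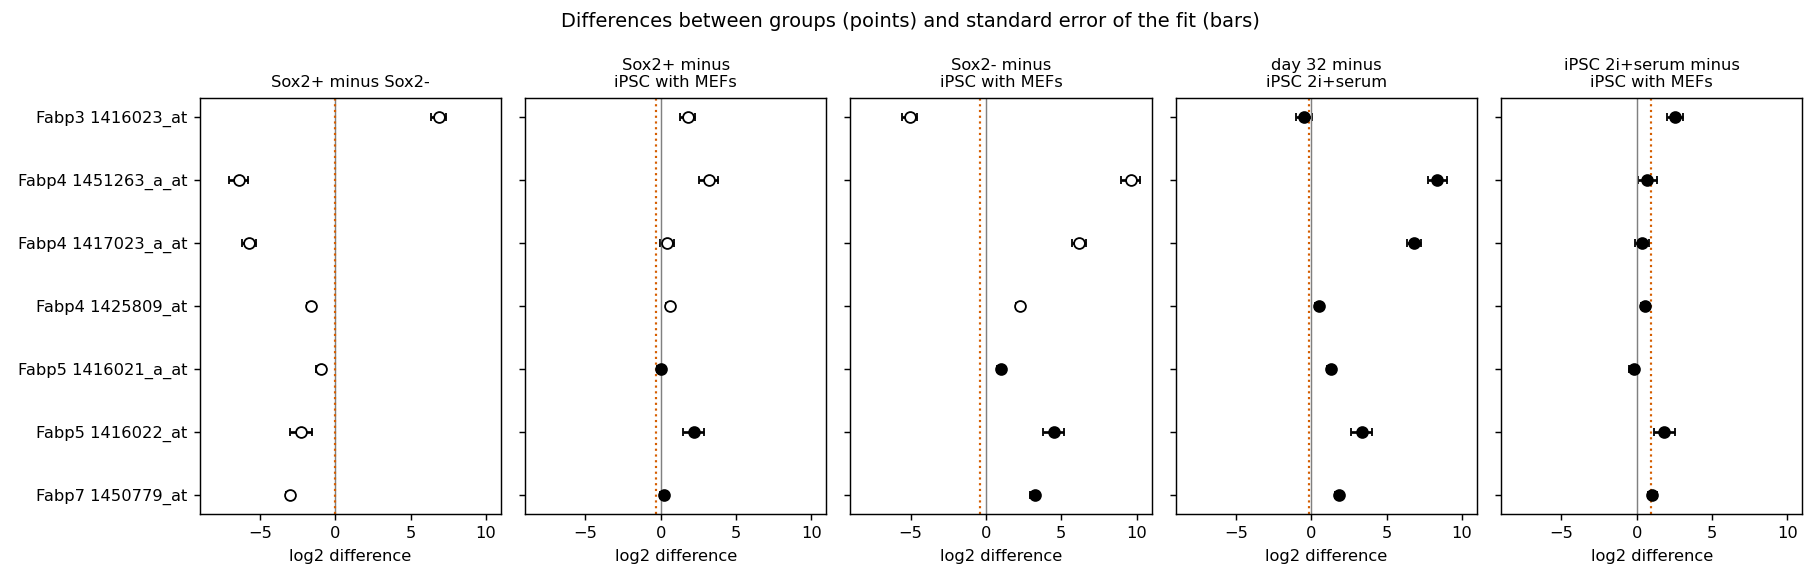
Difference in log2 units between the groups of each comparison for the 7 fitted Fabp probe sets, with bars of 1 standard error of the limma fit, filled points where the difference was tested and open points where it was not, and a dotted line at the median of all 14012 probe sets. Fabp3 and Fabp4 lie on opposite sides of 0 between the fractions, and in the day 32 sample over 2i iPSC 2 Fabp4 probe sets lie at 6.80 and 8.37.

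Counted by comparison, 5 of the 7 fitted probe sets were called higher in the day 32 sample than in 2i iPSC and 0 lower. They were both Fabp5 probe sets, 2 of Fabp4 and that of Fabp7. Over all 14012 probe sets 3.95% were called higher and 2.36% lower there. In the Sox2-negative fraction against MEF iPSC, all 3 tested probe sets (Fabp5 and Fabp7) were higher, where 13.4% of probe sets were called higher and 31.6% lower. In the Sox2-positive fraction 1 of the same 3 was called higher, beside 7.38% higher and 25.4% lower over all. Of the 7, 3 were called higher in 2i iPSC than in MEF iPSC, beside 50.4% of all probe sets, a share of the same order. Between the fractions, all 7 fitted probe sets had groups that did not overlap, as had 50% of all 14012 probe sets. The family was chosen on that comparison, so nothing is read from this count. Both fractions were set against the same iPSC arrays. Fabp4 and Fabp7 passed the filter through the groups where they were high, so these counts describe the probe sets and are no support for a direction.

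The genes whose levels over the 10 arrays were most like each member were listed among 8433 probe sets whose group means spanned at least 2 log2 units, by Pearson's r across arrays, as a description. The arrays share groups and array class, which such an r includes. Fabp3 was most like Cnnm2 (r = 0.98), Gjb5 (0.98), Morc1 (0.98), Fn1 (0.97) and Atp1b1 (0.97). Gjb5 is a gap junction connexin, Morc1 a germline silencing factor and Atp1b1 a sodium pump subunit. Morc1 had group means of 8.87 in Sox2-positive and 2.15 in Sox2-negative cells, and Atp1b1 of 8.96 and 2.37.

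Fabp4 (1451263_a_at) was most like S100a6 (r = 0.98), Irx5 (0.97), Mxd4 (0.97), Krtdap (0.97) and Fhdc1 (0.97). Krtdap, a keratinocyte differentiation protein, had group means of 11.18 in the Sox2-negative fraction, 10.29 in the day 32 sample and 6.52 in the Sox2-positive fraction, against 3.63 or lower in the iPSC groups. The calcium-binding S100a6 spanned less, from 7.59 in 2i iPSC to 12.15 in the Sox2-negative fraction. Fabp5 (1416021_a_at) was most like Elk3 (r = 0.95), Tnfaip2 (0.94), Hmgn3 (0.94), Eif4e3 (0.94) and Heph (0.94).

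Fabp7 was most like Mrs2 (r = 0.99), Lgals3bp (0.98), Cd36 (0.98), Echdc1 (0.98) and Clcf1 (0.98). Cd36 is a membrane receptor that takes up long-chain fatty acids. It read 7.29 and 5.44 in the Sox2-negative fraction and 5.62 and 4.91 in the day 32 sample, and 1.52 to 3.17 on the other 6 arrays. By the Cd36 probe set listed here, Fabp7 and Cd36 thus shared the 4 arrays on which each exceeded 4. Cd36 was listed for its likeness to Fabp7, so this sharing follows in part from the choice. Its other probe sets reached 4.31 (above 4 on 1 array) and 3.26 (above 4 on 0 arrays).

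The genes that act before and after these carriers were tested between the fractions, by the probe set with the highest mean for each gene. Among genes of fatty acid uptake and activation, 10 of 14 listed passed the filter, 2 were called higher in the Sox2-positive fraction and 2 lower, and the median difference was -0.36, where 6.66% of all 8599 genes were called higher and 5.44% lower with a median of -0.02. Cd36 was at least 5.15-fold lower in Sox2-positive cells (limma adjusted p = 0.00245), a bound of 2.71-fold without Sox2-negative replicate a and 9.78-fold without replicate b. Lpl, the lipase that frees fatty acids from lipoproteins, read 5.13 and 4.68 in Sox2-positive and 8.14 and 7.72 in Sox2-negative cells, 8.14-fold lower in the former (adjusted p = 0.00642). The fatty acid transporter Slc27a2 was at least 5.66-fold higher (adjusted p = 0.00921) and the transporter Slc27a1 3.08-fold higher (adjusted p = 0.0098) in the Sox2-positive fraction. The call of Slc27a1 was lost when only the 4 sorted arrays were fitted (adjusted p = 0.0826), and that of Slc27a2 with Sox2-positive replicate b left out (0.0557).

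Pparg, the nuclear receptor that drives Fabp4 in adipocytes, read 5.79 and 6.38 in Sox2-negative and 3.18 and 2.25 in Sox2-positive cells. It was at least 4.24-fold lower in Sox2-positive cells (limma adjusted p = 9.79e-04). Ppard, a receptor served by Fabp5, did not pass the threshold (4.49 and 5.08 against 4.38 and 4.82, difference 0.19, adjusted p = 0.72). The Ppard difference was -0.04 without Sox2-negative replicate a and -0.11 without Sox2-positive replicate b. Of 6 lipid and retinoid receptors that passed the filter, out of 12 listed, 1 was called higher and 1 lower (median difference 0.32). The former was the retinoic acid receptor Rara (at least 1.53-fold, adjusted p = 0.0355), whose call was lost without any single array of the fractions (adjusted p from 0.0724 to 0.0993).

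**Figure D4:**
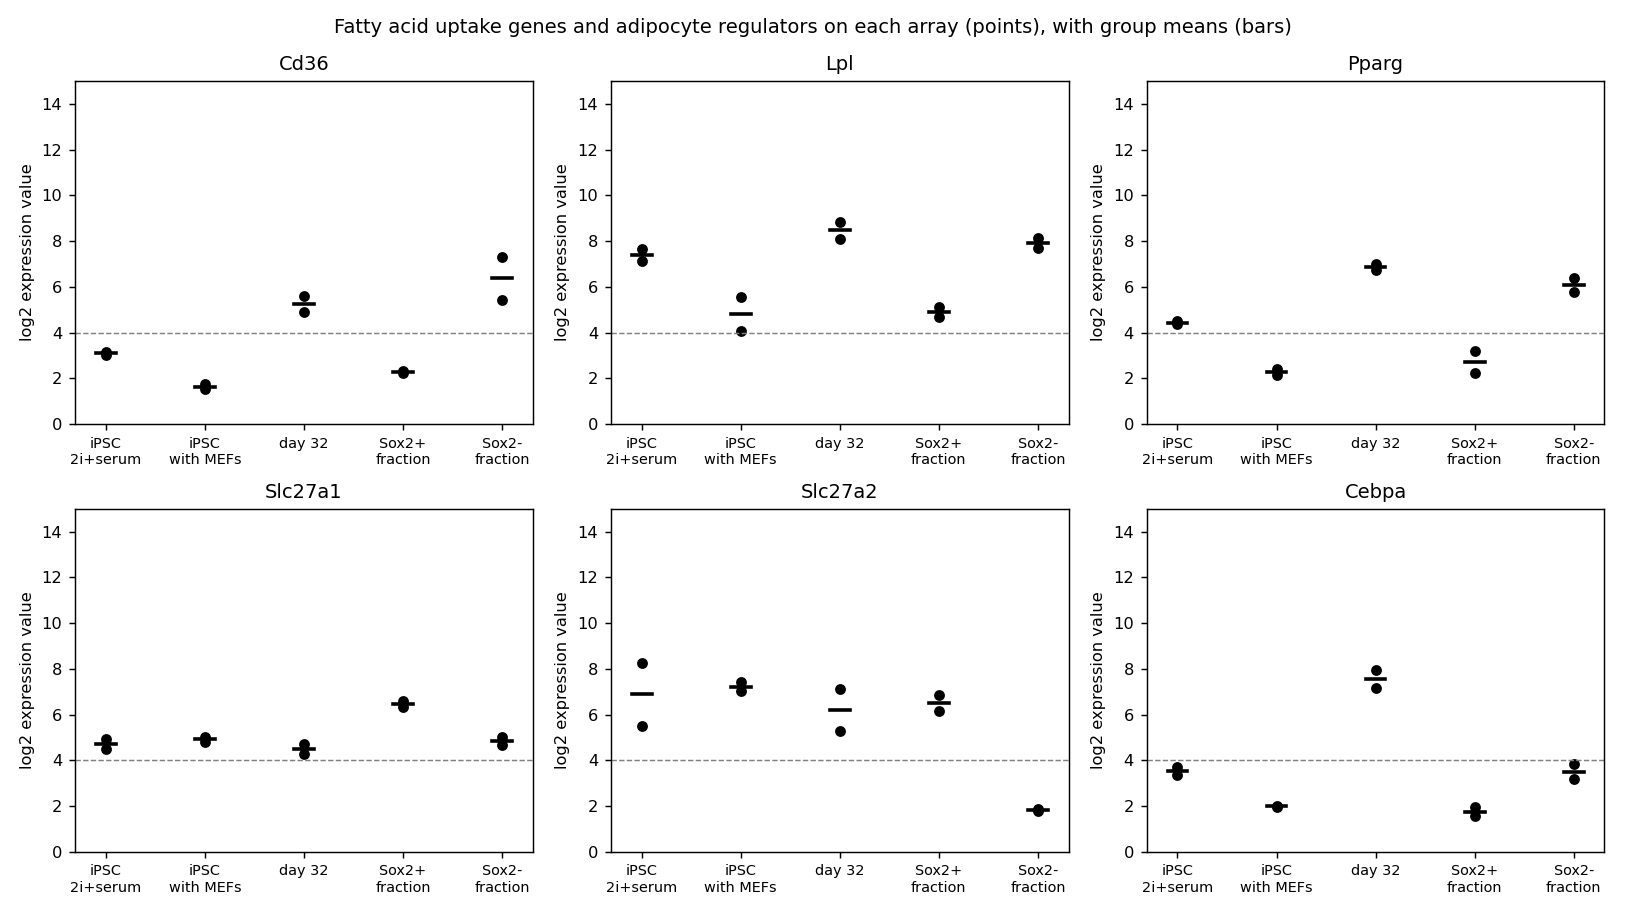
Log2 level on each array for 6 genes of fatty acid handling, with points for single arrays, bars for means of 2 arrays and a dashed line at the filter value of 4. Cd36, Lpl and Pparg are higher in the Sox2-negative than in the Sox2-positive fraction, whereas Slc27a1 and Slc27a2 are lower there.

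In fatty acid oxidation 1 of 16 measured genes was called higher in the Sox2-positive fraction and 0 lower, with a median difference of -0.29. That gene, Acadm (medium-chain acyl-CoA dehydrogenase), was 3.17-fold higher (limma adjusted p = 0.00721), with the call lost when only the sorted arrays were fitted (0.0687). Cpt1a, which admits fatty acids to mitochondria, had a difference of 1.22 (adjusted p = 0.0913). In fatty acid and triglyceride synthesis 1 of 16 was called higher and 2 lower (median -0.24). The desaturase Fads2 was 4.56-fold higher (adjusted p = 0.0101), while the desaturase Fads1 was 2.15-fold lower (0.0246) and the acyltransferase Gpam 2.28-fold lower (0.0362). Without Sox2-positive replicate b the adjusted p of Fads2 was 0.0592, and its other fitted probe set did not pass (difference 0.55, adjusted p = 0.334). The calls of Fads1 and Gpam were lost without Sox2-positive replicate a (0.0558 and 0.0533), replicate b (0.0843 and 0.143) or Sox2-negative replicate b (0.0746 and 0.103), and that of Gpam also without Sox2-negative replicate a (0.0648).

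Of 7 measured genes of lipid droplets and lipolysis, 1 was higher and 1 lower (median difference -0.11). The droplet coat protein Plin3 was 2.56-fold higher (limma adjusted p = 0.026) and Plin2 2.77-fold lower (0.0273) in the Sox2-positive fraction. Neither call held without replicate b of the Sox2-positive (0.0985 and 0.13) or the Sox2-negative fraction (0.0895 and 0.056), nor did that of Plin3 without Sox2-positive replicate a (0.0541) or that of Plin2 without Sox2-negative replicate a (0.0861). Among the related carriers of retinoids, acyl-CoA and sterols, 1 of 5 measured genes was called. Crabp1, a retinoic acid binding protein of the same superfamily, read 7.12 and 7.02 in Sox2-positive and 4.82 and 5.53 in Sox2-negative cells, 3.72-fold higher in the former (adjusted p = 0.0133). Its call was lost without Sox2-negative replicate a (0.0541) or Sox2-positive replicate b (0.0538). Crabp2 had a difference of 0.38 (adjusted p = 0.688).

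**Figure D5:**
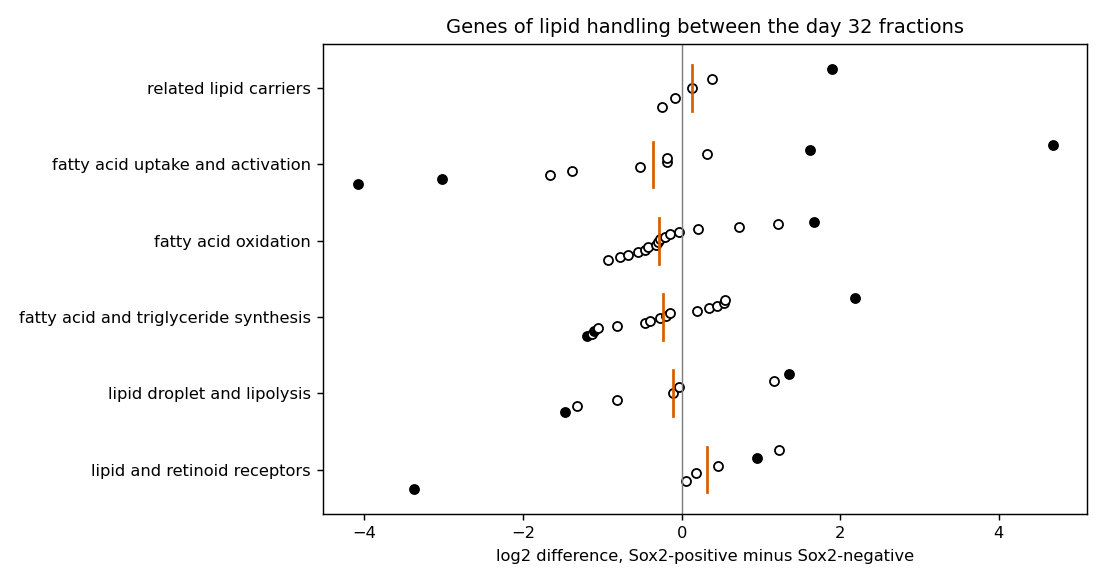
Difference in log2 units between the Sox2-positive and Sox2-negative fraction (x axis) for the measured genes of 6 lipid lists (y axis), 1 point per gene, filled where called at a limma adjusted p under 0.05, with an orange mark at the median of each list. The list medians lie between -0.36 and 0.32, with called genes on both sides of 0 in 4 of the 6 lists.

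In the day 32 sample against 2i iPSC, 5.04% of all genes were called higher and 2.22% lower, with a median difference of -0.105. Uptake genes had 1 higher of 10, receptors 1 higher of 6 and droplet genes 1 higher of 7, while oxidation and synthesis genes had 1 lower of 16 each. The medians of the 6 lists lay between -0.22 (receptors) and 0.42 (droplet genes). Pparg was 5.37-fold higher (limma adjusted p = 0.00669), a call lost without day 32 replicate a (0.0729). Cd36 was at least 2.40-fold higher (0.0412), lost without any 1 of the 4 arrays (adjusted p from 0.0581 to 0.299). Abhd5, a co-activator of lipolysis, was 4.77-fold higher (0.0194), and lost its call without iPSC replicate a (0.0953), iPSC replicate b (0.087) or day 32 replicate a (0.113). It was 2.92-fold higher without day 32 replicate a and 7.81-fold without replicate b, and its other fitted probe set did not pass (difference 1.81, adjusted p = 0.0577). Fads2 was 3.04-fold lower (0.0453) and the peroxisomal enzyme Ehhadh at least 2.09-fold lower (0.0126). The calls of Fads2 and Ehhadh were lost without iPSC replicate a (0.182 and 0.0702), iPSC replicate b (0.161 and 0.0813) or day 32 replicate a (0.34 and 0.123). The other Fads2 probe set had a difference of -1.30 (0.0588). Of the 5 measured related carriers limma called 0, and 0 had an unadjusted p under 0.05. The calls of the marker lists there were Krt6b (at least 59.5-fold higher, adjusted p = 0.00295), Krt14 (at least 2.84-fold, 0.00678), S100a4 (at least 13.0-fold, 0.00196), Twist1 (3.56-fold, 0.0281) and Cebpa as higher. Cidea (at least 1.39-fold, 0.0384), Olig2 (3.23-fold, 0.0216) and Tfcp2l1 (3.53-fold, 0.0304) were lower. Cebpa and Krt14 passed the filter only through the day 32 arrays, and Cidea and Ehhadh only through the 2i iPSC arrays. Cd36, Krt6b and S100a4 passed it only through the day 32 and Sox2-negative arrays. The calls of all these genes, here or between the fractions, describe probe sets and are no support for a direction. The other Krt14 probe sets stayed under 4, at 1.90 to 2.40 and 1.99 to 3.78. Twist1 lost its call without any 1 of the 4 arrays (adjusted p from 0.1 to 0.136), Krt14 without iPSC replicate a (0.0516) or day 32 replicate a (0.0758). The bound for Krt6b was 131-fold without day 32 replicate a and 27.1-fold without replicate b, and Tfcp2l1 was 2.31-fold and 5.41-fold lower in the same order. Cidea, Olig2 and Tfcp2l1 lost theirs without iPSC replicate a (0.185, 0.0516 and 0.104), iPSC replicate b (0.0686, 0.155 and 0.174) or day 32 replicate a (0.299, 0.189 and 0.218).

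Markers of the tissues that use these carriers were measured beside them. For Fabp4, 1 of 11 adipocyte markers on the array, Pparg, exceeded 4 on both Sox2-negative arrays, and 3 did so in the day 32 sample, 2 in 2i iPSC and 0 in the other 2 groups. The log2 of their summed level was 6.84 to 7.18 in Sox2-negative and 5.67 to 5.72 in Sox2-positive cells. It was 6.77 to 6.95 in 2i iPSC, which overlapped the Sox2-negative range, 5.50 to 5.52 in MEF iPSC and 8.44 to 8.85 in the day 32 sample. Pparg alone read 5.79 and 6.38 in the Sox2-negative fraction. Adiponectin (Adipoq) read 1.80 and 3.49 in the Sox2-negative fraction, 1.78 and 1.62 in the Sox2-positive fraction, and 4.11 and 4.41 in the day 32 sample. Its difference between the fractions was -0.95 (limma adjusted p = 0.236), and it became called without Sox2-negative replicate a (0.019). Cebpa, a transcription factor of adipocyte differentiation, rose in the day 32 sample over 2i iPSC (7.94 and 7.16 against 3.34 and 3.69, at least 11.7-fold, adjusted p = 0.00116). In both fractions it was under 4. It passed the filter only through the day 32 arrays, so the day 32 call is no support for a direction. Of the 4 adipocyte genes that passed the filter, 2 (Pparg and Cebpa) were called lower in the Sox2-positive fraction and 0 higher, and the Cebpa call was lost without Sox2-negative replicate a (adjusted p = 0.0589).

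Of 13 macrophage markers, the other tissue source of Fabp4, 11 were under 4 on all 10 arrays, Csf1r, Ptprc, Adgre1, Lyz2 and Tyrobp among them. Cd68 was 6.80-fold higher in Sox2-positive than in Sox2-negative cells (limma adjusted p = 0.00215), and read 7.10 and 7.57 in 2i iPSC. The part of macrophages in the Fabp4 level was not tested. Of 11 endothelial markers 7 were under 4 throughout, including Cdh5, Kdr and Emcn. Plvap was at least 1.51-fold higher in Sox2-positive cells (adjusted p = 0.00708), and Vwf was called higher with both fractions under 4 (0.0375), a call lost without any 1 of the 4 arrays (adjusted p from 0.0738 to 0.116). The log2 of the summed macrophage list was 6.02 to 6.04 in Sox2-negative and 7.44 to 7.44 in Sox2-positive cells. Cd68 alone read 4.16 and 4.17 in Sox2-negative and 6.96 and 6.90 in Sox2-positive cells. The log2 of the summed endothelial list was 7.27 to 7.49 in Sox2-negative and 7.48 to 7.82 in Sox2-positive cells.

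Of 6 measured keratinocyte markers, relevant to the epidermal Fabp5, 2 were called lower in the Sox2-positive fraction and 0 higher. Of 11 on the array, 6 exceeded 4 on both day 32 arrays, 2 in 2i iPSC, 1 in the Sox2-negative fraction and 0 in the other 2 groups. The log2 of the summed level of all 11 was 8.65 to 11.18 in Sox2-negative and 6.18 to 6.27 in Sox2-positive cells. Most of the Sox2-negative sum came from Krt6b alone. Of the 11, 5 were under 4 on all arrays by every probe set, and 4 of the 6 measured markers were not called between the fractions. The stress keratin Krt6b read 8.32 and 11.13 in Sox2-negative and 2.19 and 3.25 in Sox2-positive cells, at least 52.9-fold apart (limma adjusted p = 0.00259), and 8.76 and 11.03 in the day 32 sample. That bound was 140-fold without Sox2-negative replicate a and 20.0-fold without replicate b. Krt14 was also called lower in the Sox2-positive fraction (adjusted p = 0.0497), with both fractions under 4, and lost the call without any 1 of the 4 arrays (0.0873 to 0.143). Fibroblast markers were counted because the cells came from MEFs. The log2 of their summed level was 8.43 to 8.79 in Sox2-negative and 6.82 to 7.17 in Sox2-positive cells. It was 8.71 to 9.13 in 2i iPSC and 8.73 to 8.96 in MEF iPSC, which both overlapped the Sox2-negative range. The day 32 sample was higher, at 9.99 to 10.12, and the Sox2-positive fraction was the lowest group by this sum. Between the fractions limma called 1 of 8 measured genes, S100a4, with an adjusted p of 8.94e-04. Its level was at least 7.41-fold lower in the Sox2-positive than in the Sox2-negative fraction. The part of keratinocytes and fibroblasts in the Fabp4 and Fabp5 levels was not tested.

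Muscle markers were read beside Fabp3. Of 11 heart and skeletal muscle markers 0 exceeded 4 on both arrays of the Sox2-positive fraction, and 2 did so in the 2i iPSC. Of the 3 measured genes limma called 0 between the fractions, with 2 at an unadjusted p under 0.05. The log2 of the summed level of all 11 was 6.23 to 6.45 in Sox2-positive and 5.89 to 6.05 in Sox2-negative cells. For Fabp7, 0 of 9 neural progenitor markers exceeded 4 on both Sox2-negative arrays. The log2 of their sum was 5.77 to 6.07 there, against 6.16 to 6.37 in the Sox2-positive fraction. Olig2, the 1 called gene of 4 measured, was at least 1.43-fold higher in Sox2-positive cells (limma adjusted p = 0.017), and lost its call without replicate b of the Sox2-positive (0.0752) or Sox2-negative fraction (0.0506). Liver and intestine markers, the counterparts of the dim Fabp1, Fabp2 and Fabp6, were under 4 on all arrays for 8 of 10 genes. Of the other 2 genes limma called 0 between the fractions, with 1 at an unadjusted p under 0.05.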

How the data were processed

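The authors deposited log2 expression values, made with GCRMA and affy per the submitters' processing notes. Their versions were not given in the sources used here, nor is a joint normalization of all arrays. Per the labels' protocols RNA was taken with Trizol and amplified with either the Pico WTA V2 or the Ovation V2 kit of NuGEN. GCRMA models background, so differences among values near or under 4 are poorly determined. Scanner files were not used here.

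Symbols came from the supplied probe-set annotation, in which 20380 of 22690 probe sets had 1 symbol. The 691 with several, the 1555 with none and the 64 controls were left out. Entrez IDs of 20351 were found in the RefSeq table and 0 symbols changed. Probe sets above 4 on at least 2 arrays were kept (14012, of 8599 genes).

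All 10 arrays entered 1 limma 3.58.1 fit in R 4.3.3 with a mean per group (residual degrees of freedom 5, prior 4.24). P-values were Benjamini-Hochberg adjusted over the 14012 probe sets and called under 0.05. The code was tested on simulated data. All Fabp probe sets are named. Of each list up to 4 called genes per direction were to be named per comparison (here between the fractions and in the day 32 comparison, with pluripotency genes between the fractions only counted), plus a fixed set of lipid genes between the fractions, of which 1 is not reported here. Members and lists were chosen with earlier results of these data known. Alternatives changed the filter, unit, normalization, weights, variance trend, arrays fitted, replicate block and each array in turn. Python 3.11.15 and matplotlib 3.10.9 drew the figures. The number of arrays limits the precision.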

Additional observations from a re-analysis of the deposited data

How the results depend on the processing

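Of 465 member values under alternatives, 412 kept direction and, where tested, side of the threshold. Of the others, 30 lost a call, 5 gained one, 7 moved by more than the replicate spread and 11 reversed. An untested value was counted as kept if it moved by less than the larger replicate SD. Leaving out a single array cannot move a difference that far, so untested values could then only be kept or reversed. Fabp3 between the iPSC groups and Fabp4 (1417023_a_at and 1451263_a_at) between the day 32 sample and 2i iPSC kept their calls throughout. Not all reversals were small, since Fabp7 between the iPSC groups fell from a called 1.05. The reversed values lay between -0.76 and 0.09. Between the iPSC groups they were Fabp5 1416021_a_at at 0.0363 and Fabp4 1417023_a_at at -0.17 with quantile normalization. With median centring they were Fabp4 at -0.76 (1417023_a_at), -0.58 (1425809_at) and -0.41 (1451263_a_at), and Fabp7 at -0.065. Without 2i iPSC replicate b they were -0.46 (1417023_a_at) and -0.40 (1451263_a_at), against 1.18 and 1.82 without replicate a. Fabp5 1416021_a_at in the Sox2-positive fraction against MEF iPSC ranged from -0.24 to 0.27 with single arrays left out (-0.15 without MEF iPSC replicate a). Fabp3 in the day 32 comparison ranged from -1.09 to 0.09, and Ppard between the fractions from -0.11 to 0.48 (-0.04 without Sox2-negative replicate a).

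Counts of called probe sets depended more on the setting. Between the fractions 1578 became 451 with array weights and 321 with the compared arrays alone. In the day 32 comparison 884 became 1990 with weights, 302 with the compared arrays alone and 520 with quantile normalization. Quantile normalization gave 2714 in place of 4600 for the Sox2-positive fraction against MEF iPSC and 5661 in place of 8634 between the iPSC groups. Testing 8599 genes in place of 14012 probe sets gave 4087 in place of 6307 for the Sox2-negative fraction against MEF iPSC. It gave 5253 in place of 8634 between the iPSC groups. With single arrays left out the counts ran from 649 to 1668, 1662 to 4117, 3739 to 5487, 116 to 826 and 6588 to 6922, in the order fractions, Sox2-positive and Sox2-negative fraction against MEF iPSC, day 32 comparison, iPSC groups. The lowest counts came without Sox2-positive replicate b (649), without MEF iPSC replicate a (1662 and 3739) and without day 32 replicate a (116). The share of calls that were higher was 22.5% for the Sox2-positive fraction (46.6% with quantile normalization, 40.7% with centring), 29.8% for the Sox2-negative fraction (46.9% and 42.8%) and 81.8% between the iPSC groups (52.2% and 36.7%). Fewer arrays or probe sets account for part of these changes by construction, and the cause of the others was not tested.

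The labels do not say that a replicate letter marks a shared culture. Deviations of same-lettered replicates correlated at -0.07 to 0.31 over 10 pairs of groups. The 2 over 0.1 were the day 32 sample with the Sox2-positive (0.31) and with the Sox2-negative fraction (0.20), groups that were not compared, while the fractions correlated at 0.05 with each other. The letters were therefore not taken as pairs. With the letter as a replicate block the counts were 1747, 4573, 6274, 1005 and 8641 in the same order.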

Other observations

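Related carriers outside the numbered set were read on the same arrays. Fabp9, which lies between Fabp5 and Fabp4 on chromosome 3, read 1.58 to 2.11 on all 10 arrays by both of its probe sets, on arrays where Fabp5 was bright in every group. Dbi, the acyl-CoA binding protein, was bright in every group, at 11.11 to 12.46. Its difference between the fractions was -0.24 (limma adjusted p = 0.545), and that of Scp2, the sterol carrier protein, was 0.12 (adjusted p = 0.91). Crabp1 was lower in the Sox2-negative fraction than in MEF iPSC as well (5.18 ± 0.50 against 7.17 ± 0.42, SD, n = 2 each, 3.99-fold, adjusted p = 0.00256), and in the Sox2-positive fraction it did not pass the threshold against them (difference -0.10, adjusted p = 0.852).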
